A study of Mus musculus with 12 samples.

Results

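The 10 genes described here belong to canonical Wnt signalling and were taken by symbol from the 31017 gene symbols of the count table. Of these, 3 are secreted antagonists (Sfrp1, Notum, Dkk1), 3 are transcription factors counted among Wnt targets (Tcf7, Lef1, Sp5) and 4 are target genes whose products restrain the pathway (Axin2, Nkd1, Rnf43, Znrf3). Counts were found for 7 of the 10 and 6 had enough to be tested (Sfrp1, Notum, Tcf7, Lef1, Rnf43, Znrf3). RNA had been sequenced from 4T1, a mouse mammary carcinoma line, in 12 libraries of 4 groups with 3 libraries each: ETV4 KO with FGF, control with FGF, ETV4 KO, and control. All cells received Cas9 by nucleofection, with an ETV4 guide in the KO cells and a control guide in the control cells. All grew in collagen I gels in 2% serum, and the culture time was 4 days in every group. Cultures of the FGF groups were given 25 ng/ml FGF10 together with 40 ng/ml FGF2, including during a first day in 10% serum. The labels mention that first day for the FGF cultures and for no others, so the ligands and the serum step cannot be told apart. The question posed by the design is what loss of ETV4, an ETS family transcription factor, does to gene expression in each medium.

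Several points limit the groups as models. Whether the KO cells descend from 1 clone or stayed mixed is not stated, and the 6 KO library names share a further tag, C39, that is not explained. If it was 1 clone, its traits and the genotype cannot be told apart. Collagen was used at 2 concentrations, 1.2 and 2.4 mg/ml, without a record of which library had which. Replicates are not stated to be separate cultures, and the p-values therefore reflect only how far these libraries scatter, which could be technical scatter.

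Wnt proteins bind Frizzled receptors and LRP co-receptors, which stops the destruction complex of Axin, APC and GSK3 from degrading beta-catenin. Beta-catenin then enters the nucleus and joins the TCF/LEF factors on DNA, where genes such as Axin2, Nkd1, Rnf43, Znrf3, Sp5, Tcf7 and Lef1 are switched on, and several of these feed back to dampen the signal. Secreted antagonists act outside the cell, and in the mammary gland the balance of Wnt ligands and antagonists is known for its part in duct branching and in tumours.

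The libraries held 18229429 to 23193244 counts. Levels are given in CPM, the usual unit of counts relative to a library's total, after TMM scaling, which evens out library size and composition. ETV4 KO replicate 2 stood apart: its chi-square per degree of freedom against the other 2 KO libraries was 70.6 and 69.5, where the other same-group pairs ran from 3.26 to 11.2, and values without it are given for the tested members, the counts of pathway genes and Tcf7l2, the pathway values as an alternative chosen after seeing the data. Etv4 itself had 113 to 120 CPM in ETV4 KO with FGF, against 154 to 173 in control with FGF, and 116 to 159 CPM in ETV4 KO, against 162 to 168 in control; a gene-level count does not show whether the remaining transcripts are edited. Epithelial markers summed to 3017–3134 CPM in ETV4 KO with FGF, 3803–4246 in control with FGF, 3351–4724 in ETV4 KO and 3762–3881 in control, with Krt5 at 0 counts. Of the 5 that were tested, 3 were lower in ETV4 KO cells in each medium at an edgeR adjusted p under 0.05. Of all genes tested, 22.2% were lower by that measure with FGF and 23.3% without it. The markers were Epcam, Krt8 and Krt14 with FGF, but Epcam, Krt14 and Cdh1 without it. Without FGF, Krt8 and Krt18 had log2 differences of 0.08 and 0.16, which did not pass. The 7 fibroblast markers summed to 12.3–15.9 CPM in ETV4 KO with FGF, 7.93–11.3 in control with FGF, 8.81–14.1 in ETV4 KO and 9.76–11.5 in control, with Pdgfrb, Dcn and Lum at 0. Leukocyte markers summed to 9.07–9.94 CPM in ETV4 KO with FGF, 6.72–7.81 in control with FGF, 9.20–11.5 in ETV4 KO and 5.73–9.35 in control, with Adgre1 and Cd3e at 0, and 4 endothelial markers stayed below 0.75 CPM. The part of these marker differences in the results was not tested. In such bulk samples fewer cells of a type and less RNA per cell cannot be told apart.

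The promoters of 3 members are shown because these genes are common readouts of canonical Wnt signalling: the 250 bases before the annotated start of Sp5 (chr2:70474673-70474922), of a start inside Lef1 (chr3:131156044-131156293) and of Axin2 (chr11:108920099-108920348), all on the plus strand of GRCm38.p6, from RefSeq. Capitals mark the letters CTTTGA or, on the other strand, TCAAAG, 1 form of the core that TCF/LEF factors recognise, and other forms are not marked. Of 4 Lef1 starts in RefSeq, only the 1 shown had this form nearby, and it was picked for that reason.
Sp5: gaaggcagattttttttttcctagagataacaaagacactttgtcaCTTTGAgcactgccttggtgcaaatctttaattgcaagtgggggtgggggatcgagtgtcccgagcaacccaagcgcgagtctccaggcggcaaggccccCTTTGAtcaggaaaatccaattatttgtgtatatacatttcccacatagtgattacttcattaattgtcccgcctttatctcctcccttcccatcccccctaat
Lef1: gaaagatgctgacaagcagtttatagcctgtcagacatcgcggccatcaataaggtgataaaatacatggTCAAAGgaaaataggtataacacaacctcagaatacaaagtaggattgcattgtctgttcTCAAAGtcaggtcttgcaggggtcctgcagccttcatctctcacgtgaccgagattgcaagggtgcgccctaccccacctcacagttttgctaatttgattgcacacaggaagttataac
Axin2: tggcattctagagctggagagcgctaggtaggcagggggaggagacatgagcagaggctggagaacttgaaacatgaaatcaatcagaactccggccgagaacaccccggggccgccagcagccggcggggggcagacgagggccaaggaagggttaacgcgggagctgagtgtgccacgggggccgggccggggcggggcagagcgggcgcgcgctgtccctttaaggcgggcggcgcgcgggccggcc
The RefSeq table held windows for 7 of the 10 members, 12 windows in all, each reaching 250 bases before to 50 after a start. The marked form of the TCF/LEF core lay in 3 of these windows, 1 each of Dkk1, Lef1 and Sp5, and in 16% of all 32851 windows of that length. In Sp5 the matches began 204 and 104 bases before the start, and in Lef1 180 and 120 bases before it. For ETS factors 1 form of the core was searched for, CGGAAG or CTTCCG on the other strand. With no letters shared with the TCF/LEF matches, it lay in 3 of the 12 windows, of Dkk1, Tcf7 and Rnf43, and in 16.9% of all windows. Such matches describe the letters and are not known binding sites in these cells. Other forms of either core were not searched for, so a window without a match is not shown to lack a site. Of the genes shown, Sp5 had no count, Axin2 had 9 counts in all and Lef1 was higher in KO cells.

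The secreted antagonists that could be measured, Sfrp1 and Notum, were both several-fold lower in ETV4 KO cells in both media, and no KO library came near a control library. Sfrp1 (chr8:23411502-23449632, plus strand, mm10) encodes a secreted Frizzled-related protein that binds Wnt ligands. With FGF, Sfrp1 had 6.83, 6.82 and 5.28 CPM in the ETV4 KO libraries, against 40.1, 38.4 and 37.4 CPM in the control libraries. Without FGF, Sfrp1 had 6.21, 5.99 and 7.75 CPM in the ETV4 KO libraries, against 45.3, 44.6 and 48.2 CPM in the control libraries. The KO libraries were low and the control libraries high in both media, with no overlap. Genes were tested with edgeR's quasi-likelihood test over all 12 libraries with Benjamini-Hochberg adjustment over 12079 genes, and an adjusted p below 0.05 is termed a call; fold changes are log2 values with a standard error (SE). Sfrp1 fell by 2.61 on the log2 scale with FGF (SE 0.12, adjusted p 3.69e-09), which is 6.12-fold lower. Without FGF Sfrp1 fell by 2.78 (SE 0.12, edgeR adjusted p 2.74e-09), which is 6.89-fold lower, and without ETV4 KO replicate 2 it fell by 2.72.

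Notum (chr11:120653788-120661175, minus strand) encodes a secreted enzyme that removes the lipid Wnt proteins need for activity. With FGF, Notum had 3.60, 2.96 and 2.61 CPM in the ETV4 KO libraries, against 20.0, 23.7 and 25.2 CPM in the control libraries. Without FGF it had 3.48, 2.94 and 2.62 CPM in the ETV4 KO libraries, against 24.6, 25.4 and 24.6 CPM in the control libraries. The groups did not overlap in either medium, and the KO libraries kept within about 1 CPM of each other. Notum fell by 2.90 with FGF (SE 0.14, edgeR adjusted p 6.52e-09) and fell by 3.04 without it (SE 0.14, edgeR adjusted p 6.18e-09). It fell by 3.03 without ETV4 KO replicate 2. Antisense genes, 2 in number, overlap Notum exons, and whether counting used the strand is not stated. Notumos had 1 count over the ETV4 KO libraries and 18 over the control libraries with FGF, and 2 counts over the ETV4 KO and 13 over the control libraries without FGF, so its own counts were small beside the 174 to 1553 counts of Notum per group. Myadml2os had 1 count or fewer per group.

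Dkk1 (chr19:30545863-30549665, minus strand), which encodes a secreted protein that blocks the LRP co-receptors, had 0 counts in all 12 libraries. Over the 245465808 counts of the series, a count of 0 allows a level of up to 0.0122 CPM at a floor of 3 counts. Floors and intervals cover counting error only, since reads copied by PCR are not independent molecules.

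**Figure D1:**
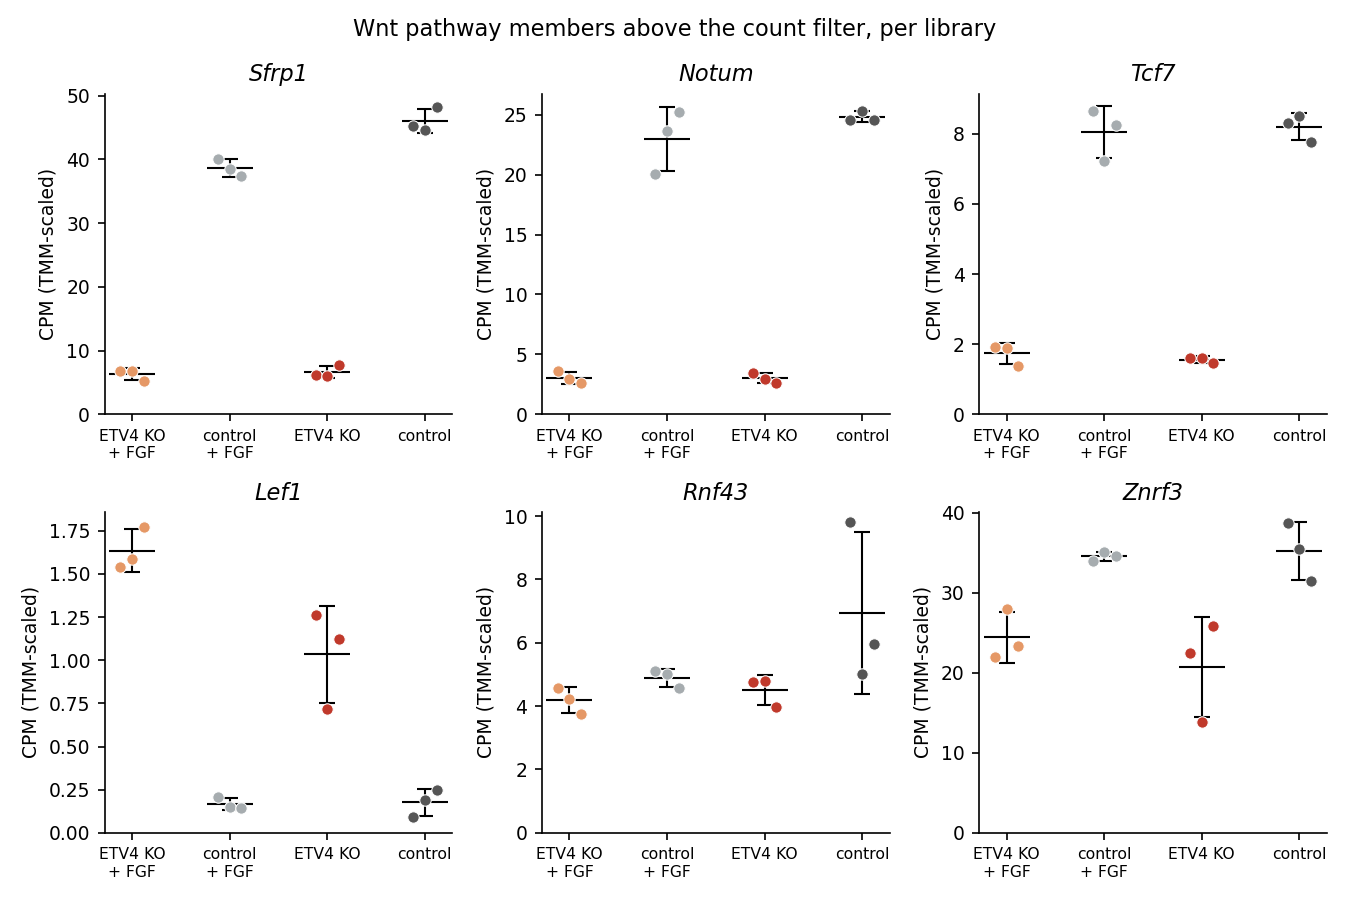
TMM-scaled CPM (vertical axis, linear, starting at 0) of the 6 tested members in each library, with the mean and SD of the 3 libraries of each group. The ETV4 KO libraries of Sfrp1, Notum and Tcf7 sit far below the control libraries in both media, those of Lef1 sit above them, and 1 control library of Rnf43 stands at 9.82 CPM.

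The target transcription factors moved in opposite directions: Tcf7 was lower and Lef1 higher in ETV4 KO cells. Tcf7 (chr11:52252371-52283014, minus strand) encodes TCF1. With FGF, Tcf7 had 1.92, 1.90 and 1.38 CPM in the ETV4 KO libraries, against 8.66, 7.22 and 8.24 CPM in the control libraries. Without FGF it had 1.62, 1.62 and 1.45 CPM in the ETV4 KO libraries, against 8.32, 8.50 and 7.77 CPM in the control libraries. Every KO library was below every control library. Tcf7 fell by 2.21 on the log2 scale with FGF (SE 0.15, edgeR adjusted p 1.85e-07) and fell by 2.39 without it (SE 0.16, edgeR adjusted p 1.10e-07). It fell by 2.42 without ETV4 KO replicate 2.

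Lef1 (chr3:131110471-131224356, plus strand) encodes the TCF relative LEF1. It was close to absent in control cells and low in KO cells. With FGF, Lef1 had 33, 30 and 36 counts in the ETV4 KO libraries, against 5, 3 and 3 counts in the control libraries. Without FGF it had 25, 12 and 24 counts in the ETV4 KO libraries, against 2, 4 and 5 counts in the control libraries. The KO libraries were higher throughout, with ETV4 KO replicate 2 the lowest of the 6. As CPM, the means were 1.63 ± 0.124 in ETV4 KO and 0.168 ± 0.0360 in control with FGF, and 1.03 ± 0.282 in ETV4 KO and 0.177 ± 0.0781 in control without FGF (SD, n = 3 each). Lef1 rose by 3.22 with FGF (SE 0.37, edgeR adjusted p 1.77e-05) and by 2.53 without it (SE 0.39, edgeR adjusted p 0.000212), or by 2.72 without ETV4 KO replicate 2. Lef1 passed the filter on low counts through the KO libraries alone, so a gene with its pattern that was tested at all had to differ. The antisense gene Gm43352, which overlaps its exons, had 1 count in all 12 libraries.

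Sp5 (chr2:70474923-70477729, plus strand), which encodes a zinc-finger factor induced by Wnt signalling, had 0 counts in all 12 libraries, with the same upper limit of 0.0122 CPM.

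Of the feedback inhibitors, Axin2 was barely detected, Nkd1 had no count, Znrf3 was lower in ETV4 KO cells in both media, and Rnf43 was called lower only without FGF. Axin2 (chr11:108920349-108950783, plus strand), an Axin family scaffold of the destruction complex and a widely used reporter of canonical signalling, had 0, 3 and 0 counts in ETV4 KO with FGF, against 1, 0 and 1 in control with FGF. Without FGF it had 0, 1 and 0 counts in ETV4 KO, against 1, 2 and 0 in control. In all, 9 counts fell in 6 of the 12 libraries, a level of 0.0366 CPM. The ratio of summed Axin2 counts, ETV4 KO over control, was scaled by library totals after TMM scaling. It was 1.60 with FGF (95% counting interval 0.184 to 19.2) and 0.36 without it (0.00686 to 4.48), so no difference was detectable at this depth. Nkd1 (chr8:88521354-88594884, plus strand), which encodes an inhibitor that binds Dishevelled, had 0 counts in all libraries, a limit again of 0.0122 CPM.

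Rnf43 and Znrf3 encode related membrane ubiquitin ligases that remove Frizzled receptors from the cell surface. Znrf3 (chr11:5276324-5444847, minus strand) had 21.9, 28.0 and 23.3 CPM in the ETV4 KO libraries with FGF, against 34.0, 35.1 and 34.6 CPM in the control libraries. Without FGF it had 22.4, 13.8 and 25.9 CPM in the ETV4 KO libraries, against 38.7, 35.5 and 31.5 CPM in the control libraries. The groups did not overlap, and ETV4 KO replicate 2 was the lowest library. Znrf3 fell by 0.50 with FGF (SE 0.17, edgeR adjusted p 0.0336) and fell by 0.76 without it (SE 0.17, edgeR adjusted p 0.00329). Without ETV4 KO replicate 2 the comparison without FGF gave a log2 fold change of -0.54 and still passed (edgeR adjusted p 8.59e-05). The call with FGF was lost when any 1 of 5 libraries was left out: control replicate 1 (adjusted p 0.0693), control replicate 2 (0.0992), control replicate 3 (0.0782), ETV4 KO replicate 1 (0.123) or ETV4 KO replicate 3 (0.101), all of them cultures with FGF, by edgeR.

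Rnf43 (chr11:87662722-87735539, plus strand) had the smallest genotype differences of the 6 tested members. With FGF it had 4.58, 4.23 and 3.75 CPM in the ETV4 KO libraries, against 5.10, 5.00 and 4.57 CPM in the control libraries, and the groups overlapped. The log2 difference was -0.22 (SE 0.22, 95% interval -0.70 to 0.25, edgeR adjusted p 0.450), which did not pass. Without FGF Rnf43 had 4.75, 4.80 and 3.97 CPM in the ETV4 KO libraries, against 9.82, 5.01 and 5.98 CPM in the control libraries. The groups did not overlap, but the lowest control library was just above the KO libraries. Rnf43 fell by 0.63 (SE 0.22, edgeR adjusted p 0.0296), a call that rests on control replicate 1: without it the log2 difference was -0.29 (adjusted p 0.184). Without ETV4 KO replicate 2 the value was -0.67. The call was also lost without ETV4 KO replicate 3 (log2 -0.54, adjusted p 0.0896) and in a fit on the 6 compared libraries alone (log2 -0.65, adjusted p 0.0943), by edgeR.

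Counted together, 1 of the 10 genes was higher and 4 lower in ETV4 KO cells with FGF, 1 tested gene was not called and 4 could not be tested; 40.3% of all genes tested were called in that comparison, 18% higher and 22.2% lower. Without FGF 1 was higher, 5 were lower and 4 could not be tested, where 45.8% of all genes tested were called, 22.5% higher and 23.3% lower. The median log2 fold change over the 6 tested genes was -1.36 with FGF and -1.58 without it, beside -0.01 over all genes tested in both comparisons. With so many genes called, and with Lef1 tested through its KO level alone, these counts describe the genes and support nothing further. By size of change, 251 tested genes were lower still than Notum, 296 than Sfrp1 and 370 than Tcf7 with FGF, and 225, 263 and 330 without it. The genes higher than Lef1 numbered 23 with FGF and 39 without it.

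**Figure D2:**
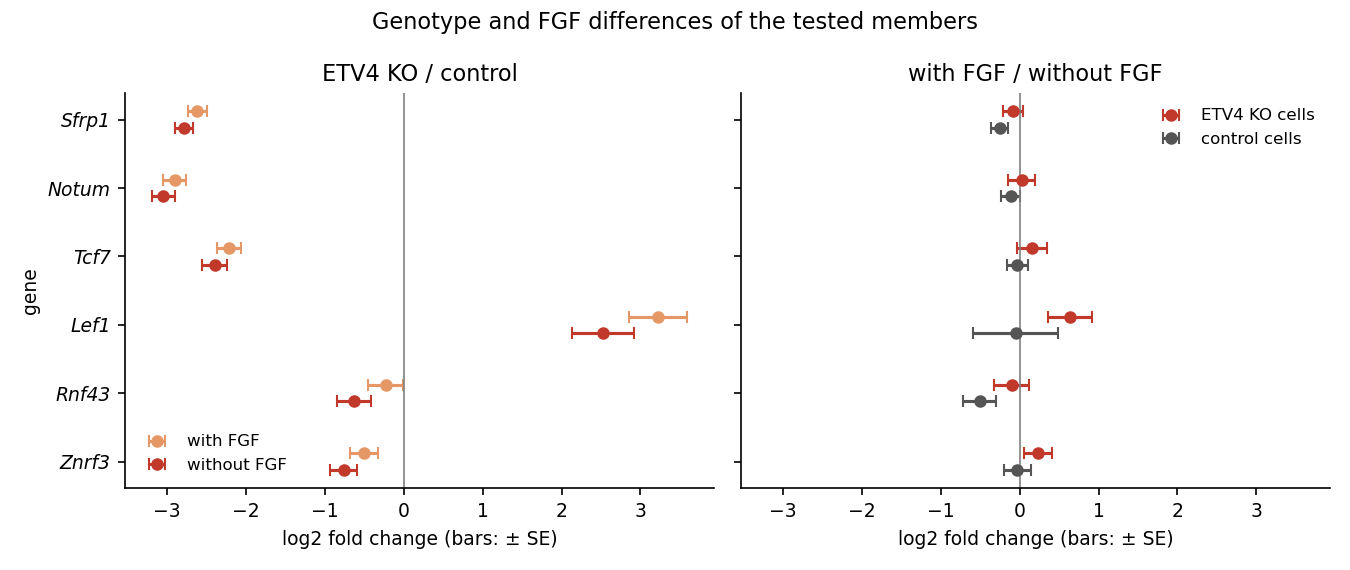
Log2 fold changes (horizontal axis) with SE bars from the edgeR fit for the 6 tested members, ETV4 KO over control at left and with FGF over without FGF at right. The genotype differences of Sfrp1, Notum, Tcf7 and Lef1 lie beyond 2 log2 units from 0, while all FGF differences are 0.64 or smaller in size.

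FGF changed no member past the threshold. In ETV4 KO cells edgeR called 0 of the 6 tested members, where 2.42% of all genes tested were called (1.47% higher and 0.944% lower), and 1 member, Lef1, had an unadjusted p under 0.05. In control cells edgeR called 0 of 6, where 0.488% of all genes tested were called (0.257% higher and 0.232% lower), and 2 members, Sfrp1 and Rnf43, had an unadjusted p under 0.05. Limma-voom also called 0 of the 6 in both, and DESeq2 called 0 in control cells and 0 of 5 in ETV4 KO cells, where it gave Lef1 no adjusted p. Each FGF comparison shares its libraries with a genotype comparison, so the values stand side by side. Lef1 in ETV4 KO cells, with 1.54, 1.59 and 1.78 CPM with FGF against 1.26, 0.719 and 1.12 CPM without it, had a log2 difference of 0.64 (SE 0.28, 95% interval 0.05 to 1.24, edgeR adjusted p 0.224). The libraries did not overlap, yet the adjusted p did not pass, and without ETV4 KO replicate 2, the lowest library, the difference was 0.46 (edgeR adjusted p 0.516). Sfrp1 in control cells, at 38.6 ± 1.37 CPM with FGF and 46.0 ± 1.91 CPM without it (SD, n = 3 each), had a log2 difference of -0.25 (SE 0.10, 95% interval -0.48 to -0.03, edgeR adjusted p 0.735). These libraries did not overlap either. Rnf43 in control cells had a log2 difference of -0.50 (95% interval -0.96 to -0.05, edgeR adjusted p 0.759), with overlapping libraries, and without control replicate 1 it was -0.16.

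The remaining FGF differences were not called either. In ETV4 KO cells the log2 difference, with FGF over without, was -0.08 for Sfrp1 (95% interval -0.36 to 0.19), 0.03 for Notum (-0.33 to 0.39), 0.15 for Tcf7 (-0.25 to 0.56), -0.10 for Rnf43 (-0.59 to 0.39) and 0.23 for Znrf3 (-0.15 to 0.61). Without ETV4 KO replicate 2 these were -0.15 for Sfrp1, 0.0148 for Notum, 0.18 for Tcf7, -0.0535 for Rnf43 and 0.0115 for Znrf3. In control cells it was -0.11 for Notum (-0.37 to 0.14), -0.03 for Tcf7 (-0.30 to 0.25) and -0.03 for Znrf3 (-0.40 to 0.34). The Lef1 interval in control cells, -1.22 to 1.12 around -0.05, was wide, with 11 counts in each group of control libraries. The test of whether the genotype effect differed between media gave no member call with edgeR, where 0.0166% of all genes tested were called, and 0 members had an unadjusted p under 0.05; DESeq2 and limma-voom also called 0. The change in the genotype effect, with FGF minus without, was 0.69 log2 units for Lef1 (95% interval -0.65 to 2.03), 0.17 for Sfrp1 (-0.19 to 0.53), 0.14 for Notum (-0.30 to 0.58), 0.18 for Tcf7 (-0.31 to 0.67), 0.40 for Rnf43 (-0.26 to 1.07) and 0.26 for Znrf3 (-0.27 to 0.79). Without ETV4 KO replicate 2 the changes were 0.51 for Lef1, 0.10 for Sfrp1, 0.13 for Notum, 0.21 for Tcf7, 0.45 for Rnf43 and 0.0393 for Znrf3. With each of the 12 libraries left out in turn they ran from 0.39 to 0.99 for Lef1, from 0.10 to 0.30 for Sfrp1, from 0.00140 to 0.26 for Notum, from 0.0978 to 0.32 for Tcf7, from 0.0641 to 0.59 for Rnf43 and from 0.0393 to 0.45 for Znrf3.

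To compare genes with each other, CPM were divided by the kilobases of exon in the gene model. In control cells without FGF the order per kb was Sfrp1 at 10.5 ± 0.436, Notum at 10.3 ± 0.190, Znrf3 at 4.46 ± 0.458, Tcf7 at 3.12 ± 0.145, Rnf43 at 1.06 ± 0.389 and Lef1 at 0.0202 ± 0.00889 CPM per kb (SD, n = 3). Only Sfrp1 and Notum, as neighbours in that order, did not differ beyond their spread. In ETV4 KO cells without FGF the order per kb was Znrf3 at 2.62 ± 0.789, Sfrp1 at 1.52 ± 0.220, Notum at 1.25 ± 0.182, Rnf43 at 0.687 ± 0.0705, Tcf7 at 0.595 ± 0.0371 and Lef1 at 0.118 ± 0.0320 CPM per kb (SD, n = 3). There the libraries of Znrf3 and Sfrp1, of Sfrp1 and Notum, and of Rnf43 and Tcf7 overlapped. Among the 11955 tested genes with a length, the per-kb level of Sfrp1 was above 21.8% of genes in ETV4 KO and 57.5% in control with FGF. Without FGF it was above 22.5% in ETV4 KO and 62.4% in control. The per-kb level of Notum was above 20.3% of genes in ETV4 KO and 59.6% in control with FGF, and above 20.3% in ETV4 KO and 61.7% in control without FGF. Both antagonists thus stood above the median tested gene in control cells and far below it in KO cells.

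The TCF/LEF family has 4 members in mouse, and Tcf7 held a smaller share of it in KO cells. Tcf7 made up 9.90% ± 1.42 of the summed per-kb level of the 4 genes in ETV4 KO and 39.2% ± 3.06 in control with FGF, and 7.84% ± 0.553 in ETV4 KO and 39.4% ± 0.382 in control without FGF (SD, n = 3). Lef1 made up 2.81% in ETV4 KO and 0.245% in control with FGF, and 1.54% in ETV4 KO and 0.257% in control without FGF. Thus Lef1 stayed the smallest share in every group. Tcf7l2, which encodes TCF4, was higher in ETV4 KO cells by 0.63 log2 units with FGF (edgeR adjusted p 0.00726) and by 0.60 without it (edgeR adjusted p 0.00857). Without FGF the groups overlapped, with 40.0, 22.4 and 38.2 CPM of Tcf7l2 in the ETV4 KO libraries, against 21.95, 22.48 and 21.96 CPM in the control libraries. ETV4 KO replicate 2, at 22.4 CPM, was within the control range, and without it the difference was 0.82 (edgeR adjusted p 7.54e-09). Its share was 54.4% ± 2.76 in ETV4 KO and 29.9% ± 1.10 in control with FGF, and 50.0% ± 13.0 in ETV4 KO and 31.9% ± 0.965 in control without FGF. The wide SD came with ETV4 KO replicate 2, in which Tcf7l1 had 4.03 CPM per kb beside 2.74 and 2.40 in its group, and Tcf7l2 had 2.55 beside 4.56 and 4.35. The summed per-kb level of the 4 genes was 6.65 ± 0.352 in ETV4 KO and 7.81 ± 0.409 in control with FGF, and 7.59 ± 0.410 in ETV4 KO and 7.92 ± 0.308 in control without FGF.

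**Figure D3:**
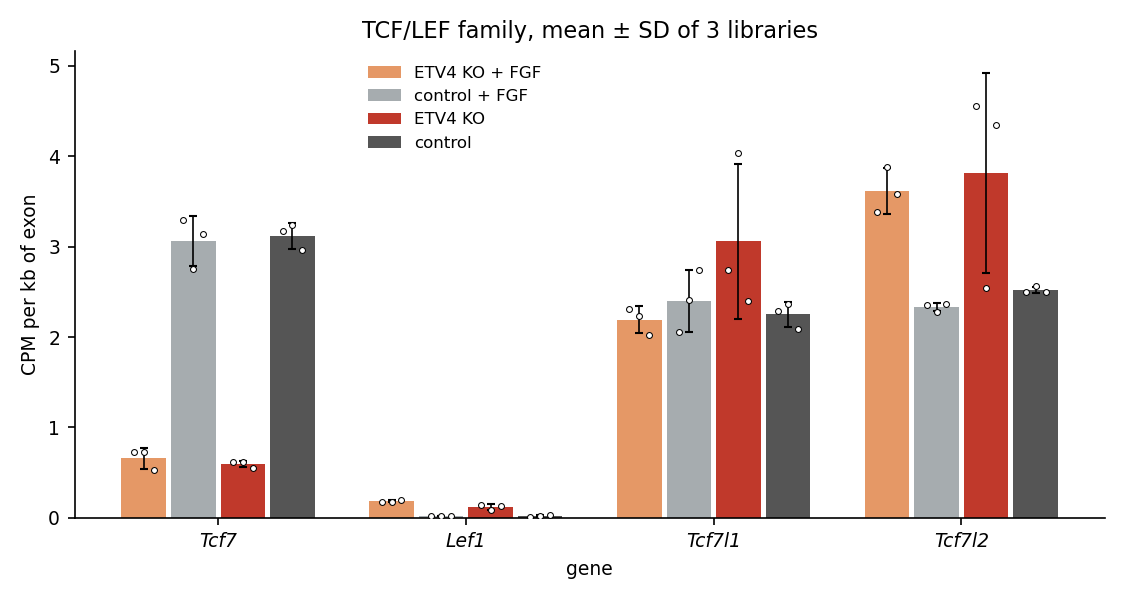
CPM per kb of exon (vertical axis, linear, starting at 0) of the TCF/LEF genes; bars are means of 3 libraries, error bars SD and points libraries. Tcf7 is the gene whose bars differ most between ETV4 KO and control, and Lef1 stays below 0.25 CPM per kb in all groups.

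Genes with other roles in the pathway were read from lists by role, chosen with earlier results of these data known. The counts below stand beside 18% of all genes tested called higher and 22.2% lower with FGF, and 22.5% higher and 23.3% lower without it, and nothing particular to a list is read from them. Without ETV4 KO replicate 2, 26.3% of genes tested were called higher and 28.2% lower without FGF. That fit gave 2 higher and 3 lower ligands, 3 higher and 4 lower receptors, 0 higher and 3 lower other antagonists, 3 higher and 7 lower cytoplasmic components, 2 higher and 4 lower nuclear cofactors, and 9 higher and 2 lower other targets. Among 19 Wnt ligands 8 were tested, of which 2 were higher and 2 lower in ETV4 KO cells with FGF, and 3 higher and 2 lower without it. Wnt10b fell to 0.578 ± 0.202 CPM in ETV4 KO, against 7.21 ± 0.288 in control with FGF (log2 -3.63, edgeR adjusted p 1.74e-08), and to 0.693 ± 0.0347 in ETV4 KO, against 9.39 ± 0.628 in control without FGF (log2 -3.75, adjusted p 1.01e-08). Wnt9a rose by 1.08 with FGF and by 1.23 without it. Wnt7a and Wnt7b were the ligands with the highest per-kb levels, and Wnt7a rose by 0.83 with FGF and by 0.75 without it. Wls, which escorts Wnt proteins to the cell surface, fell by 0.45 with FGF and fell by 0.62 without it.

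Of 16 receptors and co-receptors 13 were tested, with 4 higher and 3 lower in ETV4 KO cells with FGF, and 3 higher and 5 lower without it. Fzd1 fell (log2 -2.25 with and -1.68 without FGF), as did Fzd2 (log2 -1.18 with and -0.83 without FGF). Ror1, a receptor for non-canonical ligands, rose by 1.78 with FGF and by 1.31 without it. Lgr6, an R-spondin receptor, fell by 1.30 with FGF (edgeR adjusted p 2.68e-07) and fell by 1.50 without it (edgeR adjusted p 7.65e-08). Among 17 other antagonists only 4 had enough counts to test, with 1 higher and 2 lower with FGF, and 0 higher and 2 lower without it. The lower ones in both media were Apcdd1, a membrane inhibitor (log2 -1.45 with and -1.14 without FGF), and Kremen1, a receptor for DKK proteins (log2 -0.42 with and -0.57 without FGF). Of the 17, 8 had 0 counts in all libraries: Sfrp2, Sfrp5, Frzb, Dkk3, Dkk4, Sost, Sostdc1 and Cer1.

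Of 16 cytoplasmic components, all tested, 0 were higher and 3 lower with FGF, and 2 were higher and 6 lower without it; Ctnnb1, which encodes beta-catenin, fell by 0.30 with FGF and fell by 0.43 without it. Of 12 nuclear cofactors 11 were tested, with 2 higher and 3 lower with FGF, and 2 higher and 4 lower without it, among them Bcl9, a beta-catenin partner (log2 -0.94 with and -0.98 without FGF). Of 20 other genes reported as Wnt targets 15 were tested, with 7 higher and 2 lower with FGF, and 9 higher and 2 lower without it, where 18% of all genes tested were higher and 22.2% lower with FGF, and 22.5% higher and 23.3% lower without it. The median log2 fold change of these 15 was 0.38 with FGF and 0.33 without it, beside -0.01 over all genes tested. Procr, a surface receptor that marks mammary stem cells, rose by 1.19 with FGF and by 0.99 without it. Tnfrsf19, a TNF receptor family member, fell by 3.77 with FGF and fell by 3.48 without it. Its means were 0.0981 CPM in ETV4 KO and 1.43 in control with FGF, and 0.184 in ETV4 KO and 2.17 in control without FGF. Tnfrsf19 passed the filter on low counts through the control libraries alone, so a gene with its pattern that was tested at all had to differ.

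**Figure D4:**
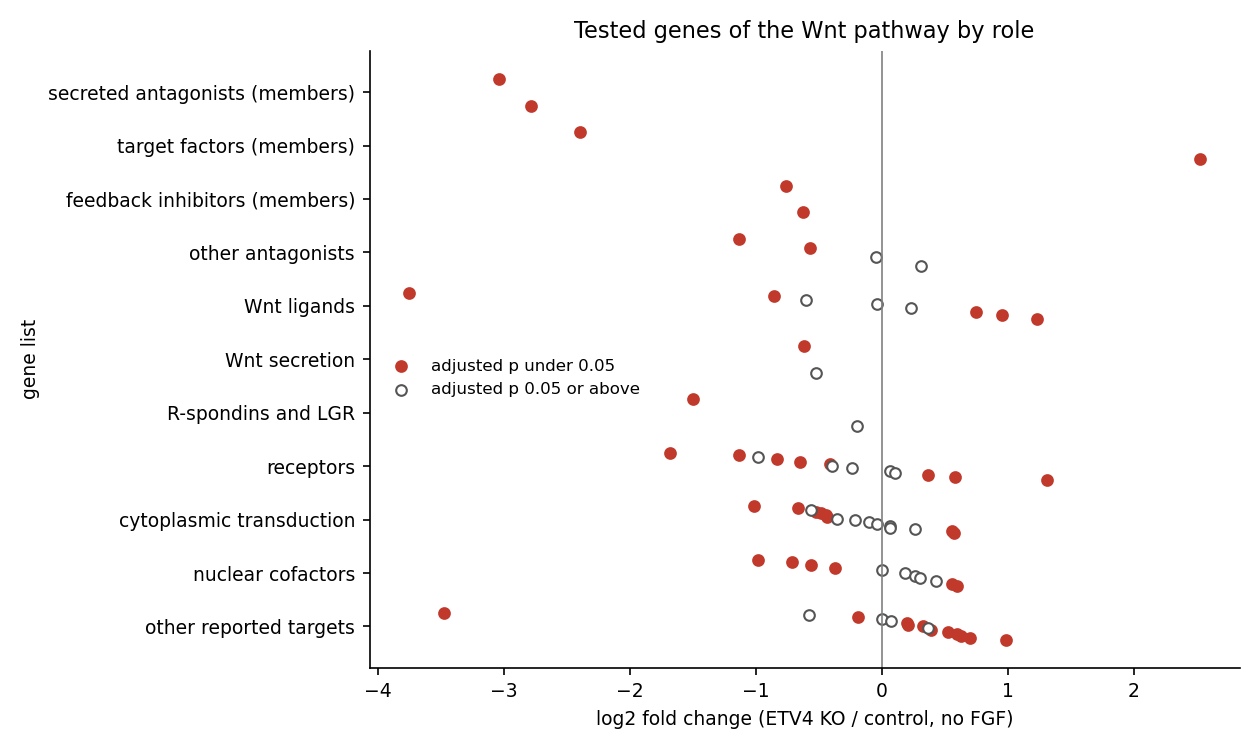
Log2 fold change (horizontal axis, ETV4 KO over control without FGF) of each tested pathway gene, in rows by role; filled points have an edgeR adjusted p under 0.05. The lowest points are Wnt10b at -3.75 and Tnfrsf19 at -3.48, and Lef1 at 2.53 is the highest. Tnfrsf19 was tested through its control level alone and Lef1 through its KO level alone.

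Of the 10 genes, 5 (Notum, Tcf7, Axin2, Rnf43 and Znrf3) lie on chromosome 11, as does Etv4. The other tested genes of chromosome 11 had a median log2 fold change of -0.41 with FGF and -0.37 without it, lower than the -0.01 of all genes, and its part in the results was not tested. Each member was therefore set beside the 25 nearest tested genes on each side. Notum, near the chromosome end, had 47 such neighbours with a median of -0.52 with FGF and -0.42 without it, and none of them fell as far as Notum. Tcf7 had 50 with medians of -0.39 and -0.45, and 2 were lower than Tcf7 in each medium. Sfrp1 on chromosome 8 had 50 with medians of -0.18 and -0.26, and 1 neighbour was lower, Fgfr1 (log2 -3.15 with and -2.96 without FGF), named after its value was seen. The flanking genes Golga7 and Tcim differed by -0.06 and -0.50 with FGF and by -0.05 and -0.62 without it. Lef1 on chromosome 3 was above all 50 of its neighbours in both media. It was tested through its KO level alone and so had to differ, and nothing is read from this place.

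Rnf43 and Znrf3 lay closer to their neighbours' medians than the other 4 tested members did. The neighbours of Rnf43 had a median of -0.38 with FGF and -0.42 without it, so that Rnf43 differed from them by 0.16 with FGF and by -0.21 without it. The neighbours of Znrf3 had medians of -0.29 with FGF and -0.21 without it, and Znrf3 differed from them by -0.21 and -0.55. Of its 50 neighbours, 12 were lower than Znrf3 with FGF and 7 without it. The distances for Notum were -2.38 and -2.62, for Tcf7 -1.82 and -1.94 and for Sfrp1 -2.43 and -2.52, with and without FGF.

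**Figure D5:**
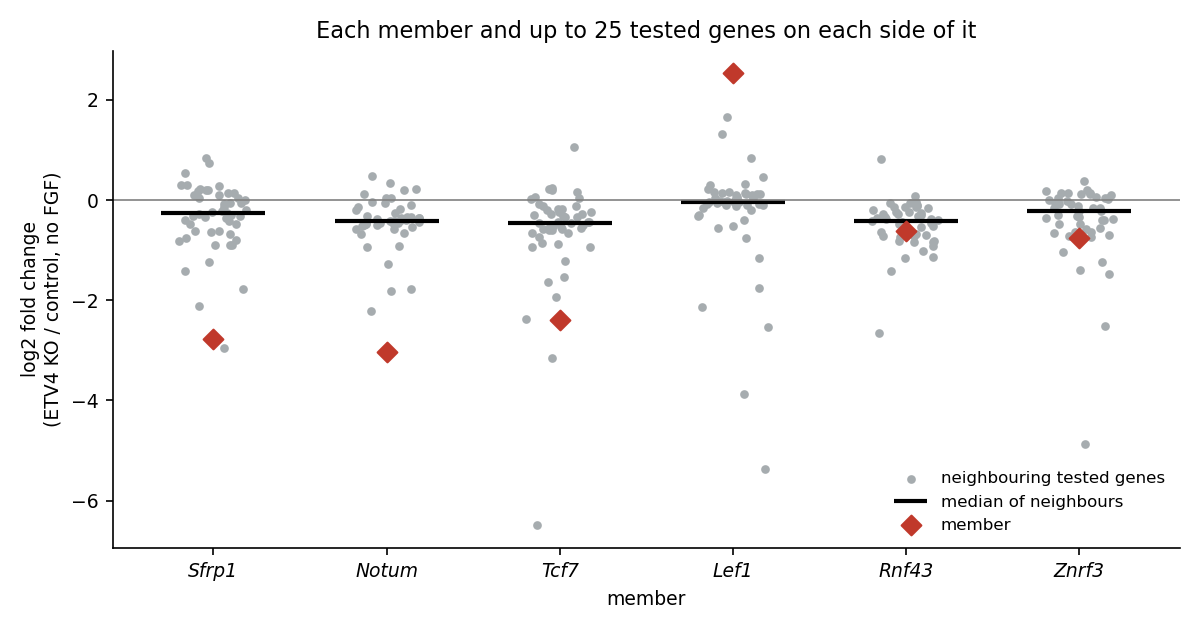
Log2 fold change (vertical axis, ETV4 KO over control without FGF) of each tested member and of its neighbouring tested genes, up to 25 on each side, with the median of the neighbours as a line. Notum, Sfrp1 and Tcf7 lie 1.94 to 2.62 log2 units below their neighbours' medians, and Rnf43 and Znrf3 lie among their neighbours. Lef1, which was tested through its KO level alone, lies 2.57 above.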

How the data were processed

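The values are unnormalized counts by gene symbol for 12 libraries, deposited by the authors and made from stranded polyA libraries, per the labels' protocols. The submitters' processing notes name STAR 2.7.9a, featureCounts, FastQC 0.11.9 and R 4.1.1, and mm10 among the builds. How the strand and reads with several matches were treated, and the annotation, is not given in the sources used. Groups came from the sample titles. In R 4.3.3, genes were filtered with filterByExpr (minimum count 10), TMM-scaled and fitted with edgeR 4.0.16 (quasi-likelihood, a mean per group, 8 residual degrees of freedom, two-sided, Benjamini-Hochberg adjustment over 12079 genes, called under 0.05). SE is the log2 fold change divided by the square root of F. The members and lists were chosen with earlier results of these data known. Named genes were the 10 members, Etv4, up to 4 called genes per list with the largest change, and the genes most like Sfrp1; Wnt7a, Wnt7b, Ctnnb1, the flanking genes of a member and other genes named for their level were added after their values were seen. Coordinates and exon lengths are from GENCODE vM21 (mm10), promoters from RefSeq GRCm38.p6. The fit was tested on simulated data. Alternatives were upper-quartile and RLE scaling, limma-voom (limma 3.58.1), DESeq2 1.42.0, no filter, at least 10 counts in every library of a group, the compared libraries alone, a replicate block, leaving out each library, and leaving out 2 libraries together. Values of the pathway lists without ETV4 KO replicate 2 were chosen after seeing the data.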

Additional observations from a re-analysis of the deposited data

How the results depend on the processing

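The genotype calls of Sfrp1, Notum, Tcf7 and Lef1 held in both media under all 21 alternatives, with log2 fold changes with FGF of -2.68 to -2.50 for Sfrp1, -3.04 to -2.80 for Notum, -2.29 to -2.07 for Tcf7 and 3.12 to 3.42 for Lef1, and without FGF of -2.91 to -2.71, -3.16 to -2.94, -2.43 to -2.34 and 2.23 to 2.83. The calls of Rnf43 without FGF and Znrf3 with FGF did not, as given in the report. For Lef1, which passed the filter on low counts through the KO libraries alone, the held call is a description and no support. With each library left out in turn, the members called stayed at 1 higher and ranged over 3 to 4 lower with FGF, and stayed at 1 higher and ranged over 4 to 5 lower without it. Counts over all genes moved more. For ETV4 KO over control, leaving out each library gave 1731 to 3439 higher and 2208 to 3733 lower with FGF (2180 and 2682 with all libraries), and 2178 to 3212 higher and 2313 to 3455 lower without it (2723 and 2810 with all libraries); 1805 were higher without FGF in a fit on the compared libraries alone, and 3489 were higher with FGF when ETV4 KO replicate 2 and control with FGF replicate 2 were both left out. For FGF in KO cells, edgeR called 178 higher and 114 lower, against 415 and 320 by DESeq2, 18 and 5 on the compared libraries alone, 828 and 600 without those 2 libraries, and 75 to 585 and 45 to 365 with each library left out. For FGF in control cells it called 31 higher and 28 lower, against 85 and 58 by DESeq2, 130 and 98 on the compared libraries alone, 210 and 146 without those 2 libraries, and 10 to 194 and 15 to 149 with each library left out. For the difference between media it called 2 higher and 0 lower, against 42 and 25 by DESeq2, 7 and 1 with no filter, 144 and 66 without those 2 libraries, 0 to 88 and 0 to 32 with each library left out, and 1 lower by limma-voom. The cause of these shifts was not tested.

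Signs turned only for FGF differences that no fit called. In control cells, Lef1 was 0.0105 by limma-voom and 0.0123 without those 2 libraries, and ran from -0.35 to 0.25 with each library left out. Tcf7 was 0.0414 without those 2 libraries and ran from -0.0839 to 0.0449 with each library left out, and Znrf3 ran from -0.10 to 0.0461. In KO cells, Sfrp1 ran from -0.15 to 0.0466 and Notum from -0.11 to 0.15 with each library left out.

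Over 18 pairs of same-numbered libraries from different groups, the correlation of deviations ran from -0.0874 to 0.343, and 2 were over 0.1. These 2 joined ETV4 KO and control with FGF, at 0.343 for replicate 2 and 0.210 for replicate 1. The 36 other pairs ran from -0.301 to 0.177. In all, 7 of 12 libraries correlated best with their own number. Whether same-numbered libraries belong together was not tested. With a replicate block, 1 member was higher and 4 lower with FGF, and 1 higher and 5 lower without it, out of 2240 genes higher and 2704 lower with FGF and 2775 higher and 2930 lower without it, so no member call changed. Depth limits Lef1 in control cells, Axin2 and the 3 genes at 0 counts.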

Other observations

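The genes whose profile over the 12 libraries lay closest to that of Sfrp1 were, by the root mean square difference of centred log2 CPM among 10477 genes, H2-Q6 (0.172), Ace (0.188), Arhgap6 (0.194), Ap1m2 (0.206) and Car12 (0.206), where the median gene was at 1.37. H2-Q6 belongs to a multigene family of class I histocompatibility genes, so its count is uncertain. Ace encodes the angiotensin-converting enzyme, Ap1m2 an epithelial subunit of the AP-1 sorting adaptor and Car12 a membrane carbonic anhydrase. In these 5 genes the log2 fold change of ETV4 KO over control ran from -2.95 to -2.52 with FGF and from -3.21 to -2.55 without it. They were chosen for this likeness, so the values describe them and test nothing.

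In the list of other reported Wnt targets, chosen with earlier results of these data known, FGF changed 4 of the 15 tested genes in ETV4 KO cells, where 2.42% of all genes tested were called, and 1 in control cells, where 0.488% were. At such shares no call among the few tested members is no result about them, and the list is not set against them. In ETV4 KO cells without FGF these 4 genes averaged 56.1 to 1172 CPM, and the tested members 1.03 to 20.7 CPM. The part of level in the calls was not tested. In ETV4 KO cells Cd44, a hyaluronan receptor, rose by 0.65 log2 units with FGF (edgeR adjusted p 0.0237), Procr by 0.57 (adjusted p 0.00761) and Jun, an AP-1 subunit, by 0.36 (adjusted p 0.0130), while Id2, an inhibitor of helix-loop-helix factors, fell by 0.39 (adjusted p 0.00562). Without ETV4 KO replicate 2, a fit that called 4.78% of all genes tested higher and 2.98% lower, Cd44 rose by 0.46, Procr by 0.70 and Jun by 0.40, and Id2 fell by 0.40, with edgeR adjusted p-values of 6.33e-07, 3.04e-07, 1.60e-05 and 0.000100 in that order; 4 of the list were higher and 1 lower. Over all alternatives, the genes called higher with FGF in ETV4 KO cells numbered 18 to 828. In control cells Id2 fell by 0.33 (adjusted p 0.0482) and was the only one of the 15 tested genes of that list that was called. Cd44 averaged 1841 ± 40.6 CPM with FGF and 1172 ± 289 CPM without it in ETV4 KO cells, and 995.2 ± 44.8 CPM with FGF and 894 ± 33.9 CPM without it in control cells (SD, n = 3 each). Whether these FGF effects differed between genotypes passed no threshold for any gene of the list.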
